A study of Homo sapiens with 18 samples.

Results

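The 30 genes described here encode the enzymes that make nucleotides: 10 of the de novo purine pathway, 5 of the de novo pyrimidine pathway, 8 that make or recycle deoxynucleotides, 3 general nucleotide kinases and 4 that supply phosphoribosyl pyrophosphate (PRPP) or salvage purine bases. They were chosen by symbol, as the rows of the expression table whose Ensembl ID carries one of 30 listed names (ADSS is ADSS2 in newer releases), and so were 30 of 60658 rows. All 30 passed the filter on low values, at least 1 FPKM (a fragment count scaled for transcript length and library size) in at least 3 of the 18 libraries, which kept 17555 genes.

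The study sequenced RNA of THP1, a monocyte-like cell line from a human acute myeloid leukaemia, and of its subclone B11, on 9 plates of each. Per the labels, THP1 carries a heterozygous NRAS G12D mutation, and B11 is labelled heterozygous for NRAS G12V. NRAS is a small GTPase that signals to the MAPK cascade. B11 received, by lentivirus, an NRAS with the G12V change that doxycycline turns on and that its guide RNAs cannot cut, together with GFP. It also received Cas9, puromycin resistance and a pair of guide RNAs around the NRAS start codon. Each line was grown in RPMI medium with fetal bovine serum and given 0, 1 or 10 ug/ml doxycycline for 5 days, with 3 plates (A, B and C) per group. THP1 on doxycycline holds the drug without the transgene, and B11 without doxycycline holds the edited cells without induction of the transgene. B11 is 1 clone grown out from 1 culture, and nothing in the labels says that plates came from separate cultures, so the p-values below cover the variation among plates and nothing beyond it.

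Nucleotide synthesis follows a small number of routes. PRPP, made by PRPS1 and PRPS2, carries the sugar on which the purine ring is built stepwise up to IMP, which then branches to AMP and GMP. Pyrimidines are built as a free ring by CAD and DHODH, joined to PRPP by UMPS, and turned into CTP by CTPS1 or CTPS2. Ribonucleotide reductase, a complex of RRM1 with RRM2 or RRM2B, reduces ribonucleotides for DNA synthesis, and thymidylate synthase (TYMS) makes the thymine nucleotide. Leukaemia drugs such as cytarabine, hydroxyurea and mercaptopurine act on, or are activated by, enzymes of these routes. Many of the genes are known targets of E2F factors, MYC or the CCAAT-binding factor NF-Y in dividing cells.

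The sequences below are from RefSeq on GRCh38.p14 and were chosen because RRM2, TYMS, TK1 and PAICS differed most between the groups and because DUT holds 2 E2F-type motifs close together. PPAT and PAICS lie head to head on chromosome 4, so that 1 interval of 125 bases precedes both genes. In the shorter windows capitals mark a CCAAT box (CCAAT, or ATTGG on the other strand) or an E2F-type motif (TTTCCCGC, TTTCGCGC, TTTGCCGC or TTTGGCGC, or the reverse complement), each within 250 bases before a RefSeq start.
PPAT/PAICS, chr4:56435616-56435740, plus strand: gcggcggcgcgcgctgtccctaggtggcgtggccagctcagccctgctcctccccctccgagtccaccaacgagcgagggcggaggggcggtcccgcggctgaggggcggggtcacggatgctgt
RRM2, chr2:10122606-10122630, plus strand: caaggcgcagCCAATgggaagggtc
RRM2, chr2:10122636-10122660, plus strand: catggcacagCCAATgggaagggcc
RRM2, chr2:10122663-10122687, plus strand: ggcaccaaagCCAATgggaagggcc
TK1, chr17:78187115-78187139, minus strand: ccgggcgctgATTGGccccatggcg
TK1, chr17:78187084-78187108, minus strand: ccggctcgtgATTGGccagcacgcc
DUT, chr15:48332152-48332180, plus strand: ctgGCGGGAAAtttcggtTTTGGCGCgct
TYMS, chr18:657604-657631, plus strand: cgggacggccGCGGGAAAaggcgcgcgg

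A RefSeq promoter was found for 27 of the 30 genes, and none was matched for ADSL, IMPDH2 and RRM2B. An E2F-type motif was found for 4 of the 27 genes (14.8%), against 2.79% of all 35116 promoters and 3.40% of all 27305 genes with a promoter. The E-box CACGTG was found for 4 of 27 (14.8%), against 6.35% of promoters and 7.73% of genes, and the CCAAT box for 9 of 27 (33.3%), against 32.0% and 37.0%. Searches covered both strands, no motif of one kind contains one of another, and a match only says that the letters are there. RRM2 held 3 CCAAT boxes at 123, 93 and 66 bases before one of its starts. A further CCAAT box lies upstream of another RRM2 start and is not printed. GART also held 3 CCAAT boxes before a start, and PAICS held none. RRM2 was the gene with the largest differences below, and whether any motif takes part in the differences was not tested. The RRM2 paralog RRM2B showed no called change, and its promoter was not searched for motifs.

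The libraries held an estimated 10.2 to 14.9 M fragments each, judged by the lowest steps in the values of 2236 single-transcript genes. Across genes, Pearson r between libraries of a group lay between 0.938 and 0.957. An ID that has no name in GENCODE 29 held 6.51% and 3.76% of the summed FPKM in the B and C plates of 1 ug/ml B11 and almost nothing elsewhere, so results at that dose are also given without those plates. All 11 monocytic markers passed the filter, with summed levels of 1414 to 1831 FPKM in THP1 and 1363 to 5497 in B11. Of these 11, 5 were higher and 3 lower in untreated B11 than in THP1. With 10 against 0 ug/ml in B11, 2 rose, ITGAM by 1.51 and FCGR1A by 1.13. Another 6 fell, among them CSF1R, the receptor of a monocyte growth factor, at -3.54. The drug alone also moved some markers: in THP1 given 10 ug/ml CSF1R fell by 0.50 (adjusted p = 0.032 in limma). CD68 fell there by 0.44 (adjusted p = 0.0115 in limma), and the remaining markers did not pass. The part of these marker shifts in the changes described below was not tested. The shares of all genes called were 47.1% between untreated lines, 42.8% in B11 at 10 ug/ml and 1.02% in THP1 at 10 ug/ml. Summed markers of T cells, B cells, erythroid cells, and epithelial cells with fibroblasts reached at most 5.27, 22.1, 0.546 and 10.3 FPKM in any library. Erythroid markers did not pass the filter, and 2 of 5 were at 0 in every library. NRAS read 23.7, 23 and 23.2 FPKM in plates A, B and C of untreated THP1 and 19.8, 22 and 21.1 in untreated B11. In B11 it read 24.4, 23.7 and 23.3 at 1 ug/ml and 28, 27.7 and 28.2 at 10 ug/ml. NRAS rose in B11 at 10 against 0 ug/ml by 0.40 (SE 0.07, adjusted p = 0.000276 in limma), with no overlap of plates. At 1 against 0 ug/ml its difference of 0.18 (SE 0.07, adjusted p = 0.0607 in limma) did not pass, although the plates did not overlap. The table does not separate the transgene from the edited gene.

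Without doxycycline most nucleotide synthesis genes were lower in B11 than in THP1. Of the 30 genes, 24 were lower and 1 (CMPK1) was higher, at an adjusted p under 0.05 in limma fitted across all 17555 genes. Over all genes 47.1% were called, 23.6% lower and 23.5% higher. The median log2 difference was -1.05 for the 30 genes and 0.02 for all genes, on the scale of log2(FPKM + 1), which understates changes of low genes and is used for every difference below, B11 minus THP1 or the higher minus the lower dose. The summed FPKM of the 30 genes was 4334 ± 183 (SD, n = 3) in THP1 and 2249.9 ± 84.9 in B11. In a bulk library fewer cells of a type and less RNA per cell cannot be told apart.

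Most of the 30 genes rose in B11 with doxycycline, in comparisons that share the untreated B11 plates with the one above. At 10 against 0 ug/ml 22 genes rose, IMPDH1 fell and 7 did not pass, against 42.8% of all genes called, 21.6% higher and 21.3% lower. The median change was 0.95, and that of all genes was -0.02. At 1 against 0 ug/ml 22 rose, IMPDH1 and CMPK1 fell and 6 did not pass, against 37.1% of all genes called, 19.8% higher and 17.3% lower, with a median of 0.98. Without plates B and C at 1 ug/ml, an alternative chosen after seeing the data that leaves 1 plate, assumed to vary like the other groups, 17 rose and 1 fell. The calls lost there were the rises of ADSS, GMPS, PRPS1, PRPS2 and UMPS and the fall of CMPK1. Rescaling each library to a common total (TPM scaling) without the unnamed ID, also chosen after seeing the data, moved the share of called genes that were higher at 1 ug/ml from 53.3% to 65.1%.

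**Figure D1:**
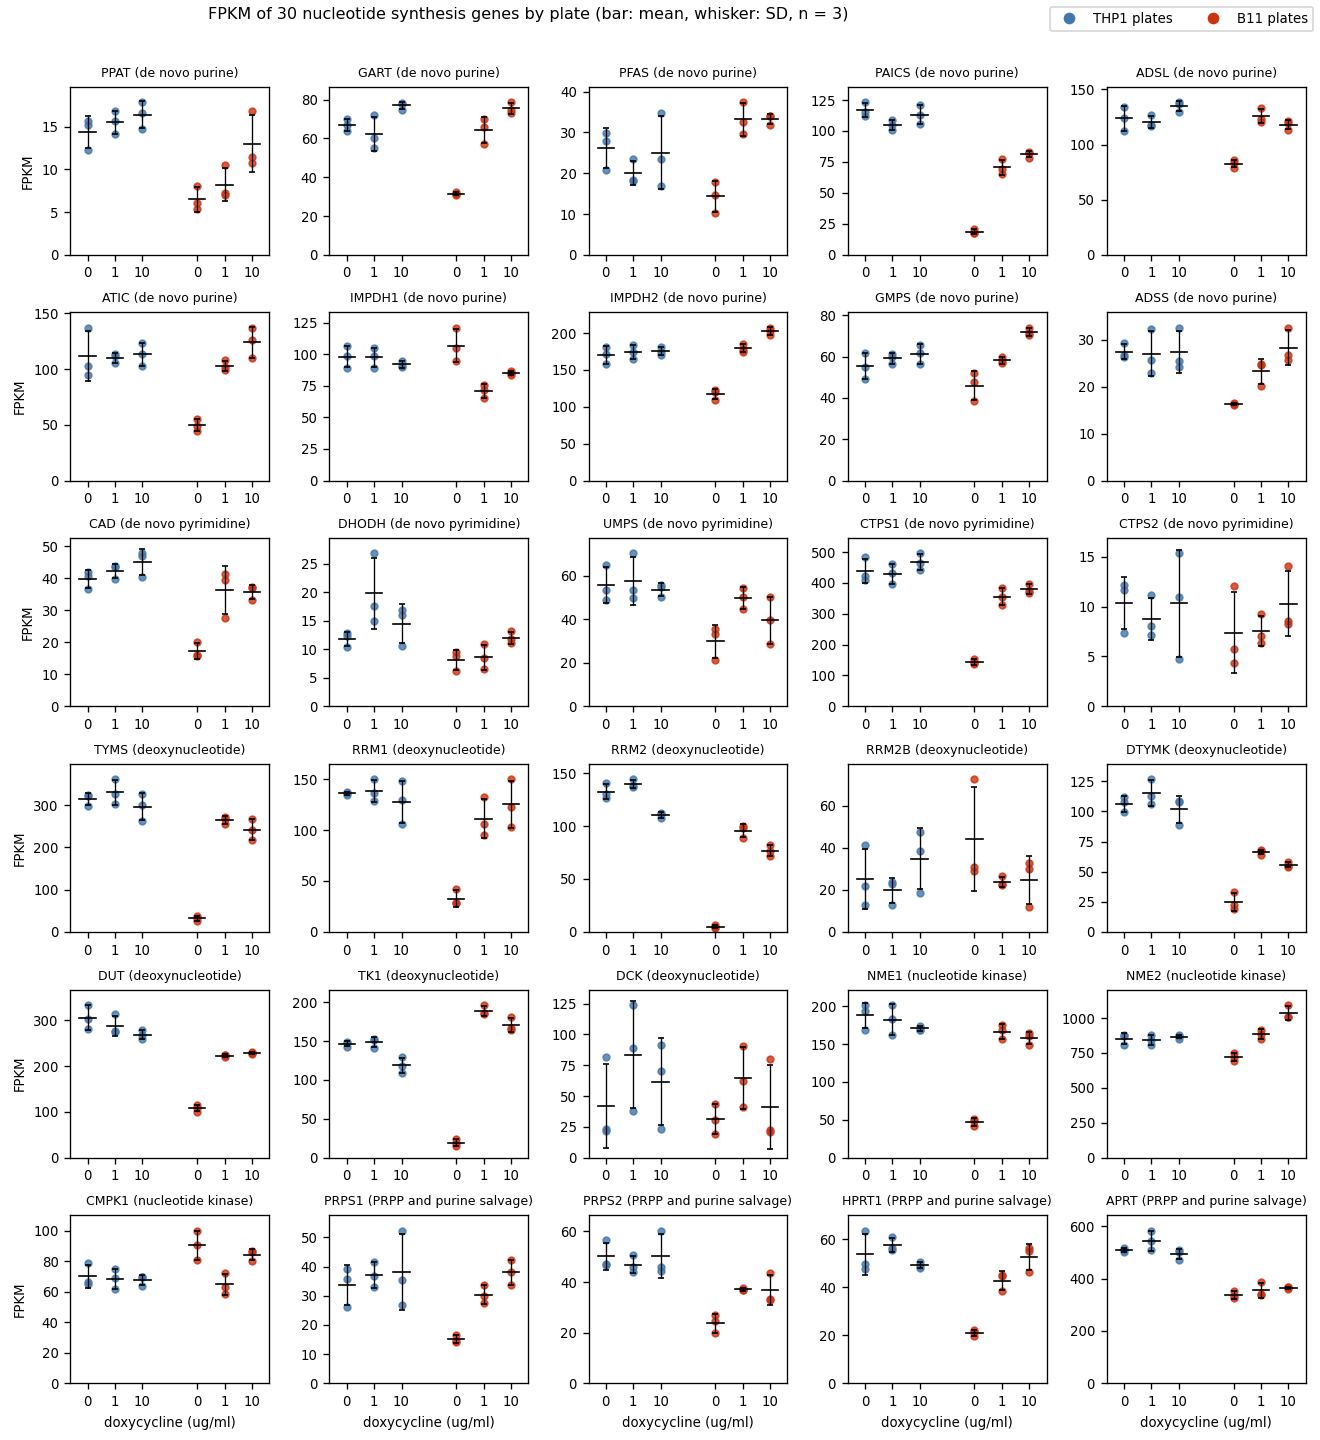
FPKM (linear axis from 0, a scale for each gene) of the 30 genes on every plate, by line and doxycycline dose in ug/ml; points are plates, bars the mean and whiskers the SD of 3 plates. Untreated B11 lies below every other group for most genes, from 3.84 to 6.41 FPKM for RRM2, and DCK and RRM2B scatter within groups.

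THP1 showed no called change of the 30 genes at either dose. At 10 against 0 ug/ml none passed in limma and 4 had an unadjusted p under 0.05 (0 to 2 with any 1 of the 6 libraries left out), and 1.02% of all genes were called, 0.0968% higher and 0.923% lower. At 1 against 0 ug/ml none passed and 1 had an unadjusted p under 0.05 (1 to 2 with any 1 library left out), with 0.0114% of all genes called, 0.0057% higher and 0.0057% lower. RRM2, DUT and TK1 had all plates at 10 ug/ml below all plates at 0 ug/ml, with differences of -0.26 (adjusted p = 0.432), -0.18 (adjusted p = 0.324) and -0.30 (adjusted p = 0.378), and GART had all above, at 0.20 (adjusted p = 0.451). With 1 ug/ml all PAICS plates lay below those at 0 ug/ml, at -0.15 (adjusted p = 0.934), and all DHODH plates above, at 0.66 (adjusted p = 0.772). With no difference between groups, 3 plates lie entirely above or below 3 others with a probability of 0.1. How many of all genes did so was not counted. Subtracting the THP1 response from the B11 response gave a called positive difference for 21 of 30 genes at 10 ug/ml, and none was negative, whereas 29.8% of all genes were called, 16% positive and 13.8% negative. At 1 ug/ml it was positive for 19 and negative for 2, against 25.9% of all genes called, 14.3% positive and 11.6% negative, and positive for 16 and negative for 1 without plates B and C. Under TPM scaling without the unnamed ID the share of called genes with a positive difference at 1 ug/ml moved from 55.2% to 67.6%.

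**Figure D2:**
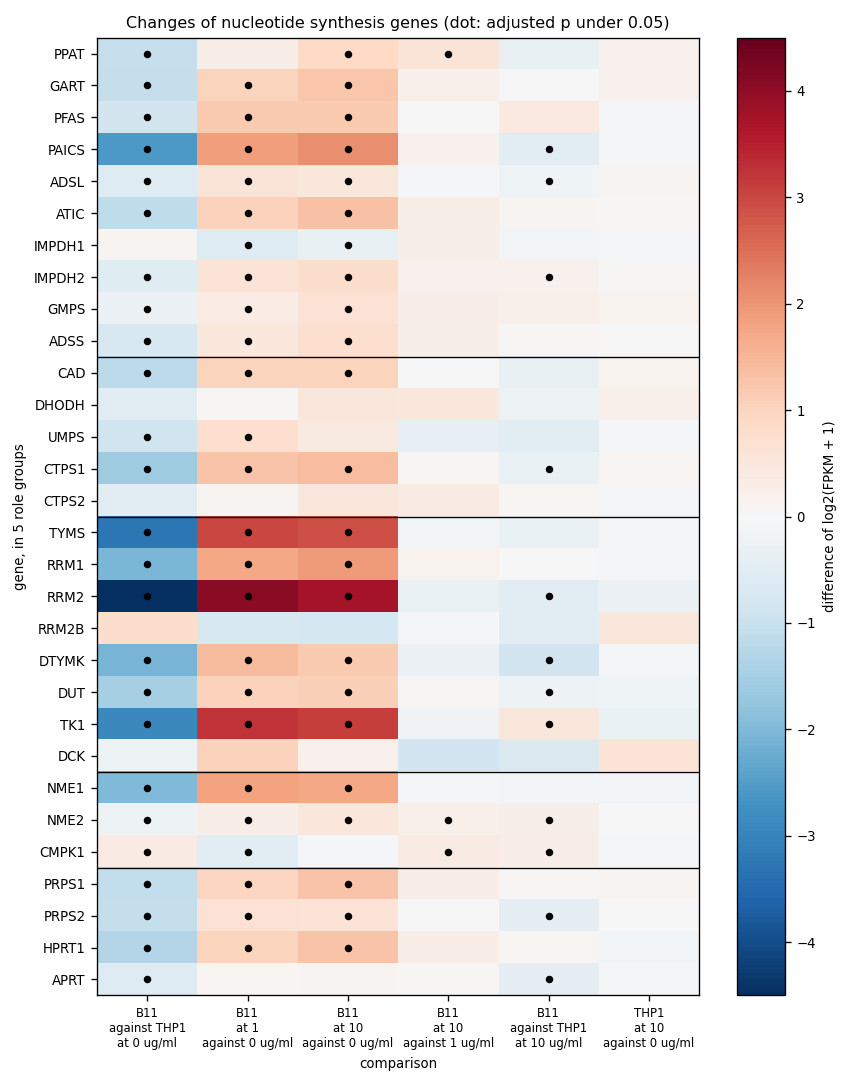
Differences of log2(FPKM + 1) for the 30 genes (rows, in 5 role groups set apart by lines) in 6 comparisons (columns); colour gives the sign and size and a dot an adjusted p under 0.05. RRM2 is the darkest row, at -4.51 between untreated lines and 3.73 at 10 against 0 ug/ml, and the THP1 column holds no dot.

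All 4 genes of PRPP supply and purine salvage were lower in untreated B11, and 3 rose at both doses. Without plates B and C at 1 ug/ml the rise at that dose held for HPRT1 but not for PRPS1 (adjusted p = 0.064) or PRPS2 (adjusted p = 0.0514). PRPS1 and PRPS2, which make PRPP, differed from THP1 by -1.09 (SE 0.20, adjusted p = 0.000344) and -1.06 (SE 0.14, adjusted p = 1.62e-05). PRPS1 read 26.1, 39.3 and 35.8 FPKM in plates A, B and C of untreated THP1, 16.6, 14.1 and 14.5 in untreated B11 and 38, 42.4 and 33.7 in B11 at 10 ug/ml. It rose by 1.28 (SE 0.20, adjusted p = 0.000102), and PRPS2 by 0.61 (SE 0.14, adjusted p = 0.00234). HPRT1, which joins hypoxanthine and guanine to PRPP and activates mercaptopurine, read 47.7, 49.8 and 63.7 FPKM in untreated THP1, 21.4, 19.6 and 22.1 in untreated B11, 44.9, 38.4 and 45.3 at 1 ug/ml and 46.6, 55.2 and 56.2 at 10 ug/ml. Its plates did not overlap between untreated lines. At 10 ug/ml in B11 1 plate lay below and 2 above all those of THP1 at that dose (48.9, 50.5 and 48.3). HPRT1 rose at both doses, by 0.99 (SE 0.11, adjusted p = 3.49e-06) for 1 ug/ml and 1.28 (SE 0.11, adjusted p = 1.71e-07) for 10 ug/ml. APRT, the salvage enzyme for adenine, behaved otherwise: at 502, 518 and 509 FPKM in THP1 it stood above 353, 333 and 325 in untreated B11, a difference of -0.60 (SE 0.06, adjusted p = 1.11e-06). In B11 it read 341, 386 and 337 at 1 ug/ml and 359, 367 and 367 at 10 ug/ml, and its difference between 0 and 10 ug/ml was 0.11 (SE 0.06, adjusted p = 0.152). At 10 ug/ml the B11 response minus the THP1 response was 1.40 (SE 0.15, adjusted p = 6.12e-06) for HPRT1 and 0.16 (SE 0.09, adjusted p = 0.181) for APRT.

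Of the 10 de novo purine genes, 9 were lower in untreated B11 and the same 9 rose at 10 ug/ml, with IMPDH1 the exception in both. PAICS, which carries out a pair of middle steps of ring assembly, differed most. It read 112, 115 and 123 FPKM in plates A, B and C of untreated THP1, 17.3, 17.3 and 20.8 in untreated B11, 77.3, 65.4 and 69.2 at 1 ug/ml and 78.4, 82.5 and 82.7 at 10 ug/ml. Untreated B11 lay below THP1 at -2.60 (SE 0.08, adjusted p = 5.4e-12), and PAICS rose at both doses, by 1.88 (SE 0.08, adjusted p = 1.78e-10) for 1 ug/ml and 2.08 (SE 0.08, adjusted p = 5.86e-11) for 10 ug/ml. PPAT, which catalyses the committed step and shares the printed interval with PAICS, read 15.7, 15.3 and 12.2 FPKM in THP1, 8.1, 5.31 and 6.11 in untreated B11, 10.5, 7.24 and 6.97 at 1 ug/ml and 10.8, 11.4 and 16.8 at 10 ug/ml. PPAT was lower in untreated B11 at -1.04 (SE 0.19, adjusted p = 0.000291), and its difference was 0.29 (SE 0.19, adjusted p = 0.242) at 1 ug/ml, where plates overlapped. It rose by 0.89 (SE 0.19, adjusted p = 0.00124) at 10 ug/ml. At 10 ug/ml the B11 response minus the THP1 response was 2.13 (SE 0.12, adjusted p = 5.45e-09) for PAICS and 0.71 (SE 0.26, adjusted p = 0.0557) for PPAT. The PPAT difference passed in 7 of 23 alternatives.

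The other enzymes of the purine ring gave smaller differences. GART, which holds 3 enzyme activities, was at 66.9 ± 2.96 FPKM in untreated THP1, 31.6 ± 0.978 in untreated B11 and 75.5 ± 2.88 in B11 at 10 ug/ml, a rise of 1.23 (SE 0.09, adjusted p = 4.3e-08). ATIC, which closes the ring to IMP, was at 112 ± 22.3, 49.5 ± 5.32 and 124 ± 13.8 FPKM in the same groups and rose by 1.31 (SE 0.12, adjusted p = 6.25e-07). PFAS, an amidotransferase of the ring, rose by 1.19 (SE 0.23, adjusted p = 0.000566), to 33.3 ± 1.28 FPKM from 14.3 ± 3.81. ADSL, which splits off fumarate at a pair of steps, rose by 0.51 (SE 0.07, adjusted p = 2.44e-05). These loci overlap others: GART with SON and PFAS with CTC1 on the opposite strand, and ADSL with SGSM3 on the same strand. No source used here gives the strandedness of the libraries, so their reads may be shared with those genes. SON was at 121 ± 10.8 FPKM in untreated B11 and 90.3 ± 4.72 at 10 ug/ml, CTC1 at 40.5 ± 12.2 and 35.7 ± 2.48, and SGSM3 at 185 ± 3.21 and 122 ± 7.04. Whether they take part in the 3 results was not tested.

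IMPDH1 and IMPDH2, the paralogs that commit IMP to GMP, moved in opposite directions in B11. IMPDH2 read 158, 181 and 172 FPKM in plates A, B and C of untreated THP1, 119.9, 123 and 109 in untreated B11, 175, 185 and 178 at 1 ug/ml and 198, 207 and 204 at 10 ug/ml. IMPDH1 read 89.4, 98.9 and 106 in THP1, 121, 105 and 94.8 in untreated B11, 65.5, 71.5 and 75.9 at 1 ug/ml and 85.4, 83.3 and 86.5 at 10 ug/ml. IMPDH2 was lower in untreated B11 at -0.54 (SE 0.06, adjusted p = 4.89e-06) and rose by 0.79 (SE 0.06, adjusted p = 9.76e-08) at 10 ug/ml. IMPDH1 differed between untreated lines by 0.12 (SE 0.09, adjusted p = 0.31) with overlapping plates, and fell at both doses, by 0.58 (SE 0.09, adjusted p = 0.000125) for 1 ug/ml and 0.32 (SE 0.09, adjusted p = 0.0101) for 10 ug/ml. The fall at 10 ug/ml did not pass with B11 plate A at 0 ug/ml left out (adjusted p = 0.0569). Among the genes after the branch, GMPS, which completes GMP, rose by 0.65 (SE 0.10, adjusted p = 0.000116), and ADSS, which commits IMP to AMP, by 0.75 (SE 0.14, adjusted p = 0.000397). GMPS passed as lower in untreated B11 at -0.27 (SE 0.10, adjusted p = 0.0436), but its plates overlapped those of THP1, and the call was lost in 7 of 17 alternatives. A GMPS pseudogene at a mean of 7.71 FPKM may share reads with GMPS.

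The de novo pyrimidine genes split, with CAD and CTPS1 changed at each dose and DHODH and CTPS2 at neither. CTPS1, which makes CTP and is the form on which lymphocytes depend for proliferation, read 409, 483 and 422 FPKM in plates A, B and C of untreated THP1, 137, 139.6 and 155 in untreated B11, 328, 384 and 354 at 1 ug/ml and 375, 366 and 397 at 10 ug/ml. It was lower in untreated B11 at -1.60 (SE 0.08, adjusted p = 5.27e-10) and rose by 1.39 (SE 0.08, adjusted p = 3.01e-09), and at 10 ug/ml all B11 plates lay under those of THP1 at the same dose. CAD, the enzyme of the first 3 steps, read 42, 40.7 and 36.7 FPKM in THP1, 20.0, 15.7 and 15.9 in untreated B11 and 37.1, 33.2 and 36.8 at 10 ug/ml. CAD was lower in untreated B11 at -1.17 (SE 0.13, adjusted p = 4.33e-06) and rose by 1.02 (SE 0.13, adjusted p = 2.09e-05). UMPS, which makes UMP and activates fluorouracil, was lower in untreated B11 at -0.90 (SE 0.21, adjusted p = 0.00231). It rose at 1 ug/ml by 0.75 (SE 0.21, adjusted p = 0.0107) and gave 0.39 (SE 0.21, adjusted p = 0.15) at 10 ug/ml, where its plates read 39.5, 28.6 and 50.3 and overlapped those of untreated B11, at 35.4, 21 and 33. The call at 1 ug/ml was lost in 2 of 18 alternatives. DHODH, the mitochondrial step and the target of brequinar, was low, at 11.8 ± 1.24 FPKM in THP1 and 8.12 ± 1.7 in untreated B11, a difference of -0.51 (SE 0.23, adjusted p = 0.0812) that did not pass although the plates did not overlap. Its difference with 10 ug/ml was 0.53 (SE 0.23, adjusted p = 0.0773). CTPS2 was the least abundant gene in untreated THP1, at 10.4 ± 2.65 FPKM, and at 7.4 ± 4.09 in untreated B11 its plates overlapped.

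The deoxynucleotide genes held the largest differences. RRM2 (chr2:10120698-10131419, plus strand in GENCODE 29, GRCh38) encodes the ribonucleotide reductase subunit that is made in S phase and blocked by hydroxyurea. It read 140.5, 126 and 131 FPKM in plates A, B and C of untreated THP1 and 3.84, 4.6 and 6.41 in untreated B11. At 1 ug/ml B11 read 99.9, 98.2 and 89 FPKM, and at 10 ug/ml 72.2, 76.2 and 82.3. All untreated B11 plates thus lay far below every other plate of the study, and the treated B11 plates lay between them and the lowest THP1 plate. It was lower in untreated B11 at -4.51 (SE 0.11, adjusted p = 1e-12), and rose at both doses, by 4.04 (SE 0.11, adjusted p = 4.11e-12) for 1 ug/ml and 3.73 (SE 0.11, adjusted p = 3.8e-12) for 10 ug/ml. The 3 CCAAT windows printed for RRM2 lie upstream of one of its starts, and the table does not separate starts.

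TYMS, the target of fluorouracil, read 297, 323 and 322 FPKM in untreated THP1, 37.3, 25.7 and 33.1 in untreated B11, 268, 255 and 272 at 1 ug/ml and 217, 268 and 240.1 at 10 ug/ml. TK1, which salvages thymidine in S phase, read 143, 149 and 148 in THP1, 24.6, 14.9 and 18.5 in untreated B11, 186, 197 and 185 at 1 ug/ml and 164, 181 and 167 at 10 ug/ml. TK1 passed from below THP1 to above it, with no overlap at either end, whereas TYMS plates lay under those of THP1 at 1 ug/ml and overlapped them at 10 ug/ml. TYMS was lower in untreated B11 at -3.27 (SE 0.12, adjusted p = 1.64e-11) and rose by 2.89 (SE 0.12, adjusted p = 8.79e-11) at 10 ug/ml. TK1 was lower at -2.89 (SE 0.12, adjusted p = 7.7e-11) and rose by 3.11 (SE 0.12, adjusted p = 5.2e-11). TYMS overlaps ENOSF1 on the opposite strand, which was at 56.5 ± 12.5 FPKM in untreated B11 and 52.6 ± 7.42 at 10 ug/ml; whether it takes part in the TYMS values was not tested.

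RRM1, the large subunit of the reductase, was at 136 ± 1.66 FPKM in untreated THP1, 32.7 ± 8.15 in untreated B11 and 125 ± 23.4 at 10 ug/ml, a rise of 1.92 (SE 0.17, adjusted p = 4.03e-07). DTYMK, the kinase that makes thymidine diphosphate, was at 106 ± 6.59, 24.9 ± 7.44 and 55.6 ± 2.09 FPKM and rose by 1.16 (SE 0.15, adjusted p = 1.29e-05). DUT, the dUTPase that keeps uracil out of DNA, was at 306 ± 26.7, 108 ± 7.29 and 229 ± 2.4 FPKM and rose by 1.08 (SE 0.07, adjusted p = 9.65e-09). DUT holds 2 E2F-type motifs in the window printed. RRM2B, the p53-regulated small subunit that acts outside S phase, read 41.1, 21.7 and 13 FPKM in untreated THP1 and 29.1, 30.9 and 72.6 in untreated B11, a difference of 0.80 (SE 0.48, adjusted p = 0.188). At 10 ug/ml it differed by -0.80 (SE 0.48, adjusted p = 0.2). DCK, which activates cytarabine, read 21.8, 81.6 and 22.9 FPKM in THP1 and 18.9, 30.7 and 43.3 in untreated B11, the widest spread among the 30 genes (median coefficient of variation 54.5% within groups, against 4.01% for NME2). Its difference at 10 ug/ml was 0.19 (SE 0.66, adjusted p = 0.853). DCK shares its strand with the overlapping gene MOB1B, which was at 4.41 to 11.5 FPKM over the libraries.

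Of the general kinases, NME1 and NME2, which make nucleoside triphosphates from diphosphates, differed in size of response. NME1 read 169, 193 and 201 FPKM in plates A, B and C of untreated THP1, 48.9, 41.4 and 50.5 in untreated B11, 156, 175 and 168 at 1 ug/ml and 149, 161 and 165 at 10 ug/ml. NME2, the most abundant of the 30 genes, read 805, 873 and 879.6 FPKM in THP1, 719.7, 695 and 752 in untreated B11, 847, 917 and 886 at 1 ug/ml and 1005, 1006 and 1095 at 10 ug/ml. NME1 was lower in untreated B11 at -1.98 (SE 0.09, adjusted p = 2.12e-10) and rose by 1.74 (SE 0.09, adjusted p = 1.2e-09), and the same differences of NME2 were -0.24 (SE 0.05, adjusted p = 0.0014) and 0.52 (SE 0.05, adjusted p = 1.13e-06). The readthrough gene NME1-NME2 shares their strand and was at 34.8 ± 4.22 FPKM in untreated B11 and 136 ± 8.33 at 10 ug/ml, and an NME2 pseudogene averaged 34.1 FPKM, so these values may share reads. CMPK1, which phosphorylates CMP and UMP, was the only gene higher in untreated B11 than in THP1, by 0.36 (SE 0.10, adjusted p = 0.00866), a call that both forms of TPM scaling lost (adjusted p of 0.0753 and 0.101). It fell at 1 ug/ml by 0.48 (SE 0.10, adjusted p = 0.00183), a call lost without plates B and C (adjusted p = 0.132). The difference of 10 from 0 ug/ml was -0.09 (SE 0.10, adjusted p = 0.492).

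The ratio of paired enzymes within a plate was compared, since FPKM is per length. RRM2 divided by RRM2B was 0.132, 0.149 and 0.0882 in plates A, B and C of untreated B11 and 2.19 to 11.2 on every other plate. NME1 divided by NME2 was 0.0595 to 0.0679 in untreated B11 and 0.148 to 0.231 elsewhere. IMPDH2 divided by IMPDH1 was 0.99 to 1.17 in untreated B11, 1.57 to 1.95 in THP1 and 2.31 to 2.67 in treated B11. PAICS divided by PPAT was 2.14 to 3.41 in untreated B11 and 4.92 to 10.1 elsewhere. An exact 2-sided permutation test of 3 against 3 plates cannot go below p = 0.1, the value found for untreated B11 against THP1 in 5 of the 6 pairs, PRPS1 against PRPS2 being the exception (p = 0.9). CTPS1 divided by CTPS2 overlapped between B11 at 10 and 0 ug/ml (exact permutation p = 0.3).

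**Figure D3:**
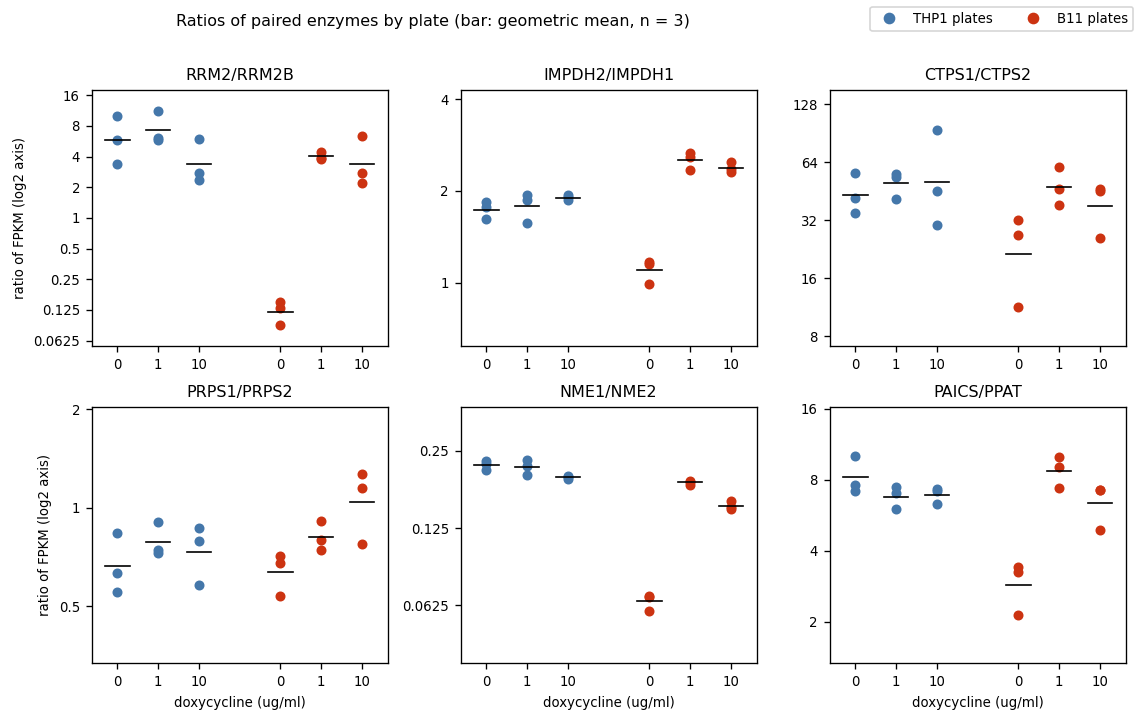
Ratio of FPKM within a plate (log2 axis) for 6 pairs of genes, by line and doxycycline dose in ug/ml; points are plates and bars geometric means of 3 plates. For RRM2 over RRM2B untreated B11 lies between 0.0882 and 0.149 and all other plates at 2.19 or above, and PRPS1 over PRPS2 overlaps between the untreated lines.

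Treated B11 differed from THP1 at the same dose in some of the genes. With 10 ug/ml 8 of the 30 genes were lower in B11 than in THP1 and 4 higher, against 32.4% of all genes called, 16% lower and 16.4% higher, with a median of -0.15. The lower genes were PAICS -0.47, ADSL -0.19, CTPS1 -0.30, RRM2 -0.52, DTYMK -0.85, DUT -0.23, PRPS2 -0.44 and APRT -0.44. The higher genes were IMPDH2 0.21, TK1 0.52, NME2 0.25 and CMPK1 0.32. Of these calls, ADSL was lost in 7, CMPK1 and IMPDH2 each in 5, PRPS2 in 4 and DUT in 2 of 17 alternatives. Among the genes not called, TYMS passed in 4, CAD in 2 and PFAS, PPAT and UMPS each in 1 of 17. TK1 at 10 ug/ml read 164, 181 and 167 FPKM in B11 and 118, 129 and 109.6 in THP1, with no overlap, and DTYMK read 54.2, 58 and 54.6 and 108, 108 and 88.7, also with none. At 1 ug/ml 10 were lower and 2 (PFAS and TK1) higher, against 29.8% of all genes called, 14.8% lower and 15% higher, with a median of -0.26. The TK1 call at 1 ug/ml was lost in 11 of 18 alternatives and that of PFAS in 6 of 18. Among the lower genes CTPS1 was lost in 3 of 18 and HPRT1, PPAT and RRM2 in 1 each. Of those not called, TYMS passed in 5, PRPS2 in 2 and CAD in 1 of 18. Without plates B and C 8 genes were lower and none higher. In limma 14 of the 30 had an unadjusted p under 0.05 at 1 ug/ml and 16 at 10 ug/ml.

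Between 1 and 10 ug/ml in B11 few of the genes differed. NME2 rose by 0.23 (SE 0.05, adjusted p = 0.00883), CMPK1 by 0.38 (SE 0.10, adjusted p = 0.024) and PPAT by 0.60 (SE 0.19, adjusted p = 0.0492), and none fell, against 12.8% of all genes called, 5.69% higher and 7.12% lower. All 3 calls were lost without plates B and C at 1 ug/ml, and over 18 alternatives that of PPAT was lost in 12, CMPK1 in 5 and NME2 in 3. None of the 8 deoxynucleotide genes passed, and their values had both signs. RRM2 gave -0.31 (adjusted p = 0.0903), TK1 -0.15 (adjusted p = 0.493) and DTYMK -0.25 (adjusted p = 0.313), with all plates at 10 ug/ml below those at 1 ug/ml. DUT gave 0.04 (adjusted p = 0.775), with all plates at 10 ug/ml above those at 1 ug/ml. The plates of the other 4 overlapped, at -0.14 for TYMS, 0.17 for RRM1, -0.06 for RRM2B and -0.85 for DCK. With no difference between groups, 3 plates separate fully from 3 others with a probability of 0.1. How many of all genes separated between these doses was not counted.

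MYC and the S-phase factor E2F1, known to act on many nucleotide synthesis genes in dividing cells, were also lower in untreated B11. Whether either takes part in the changes of the nucleotide genes was not tested. E2F1 read 32.3, 31.5 and 33.2 FPKM in plates A, B and C of untreated THP1, 2.92, 2.71 and 2.7 in untreated B11, 26.6, 26.6 and 25.8 at 1 ug/ml and 22.2, 24.7 and 21.8 at 10 ug/ml. MYC read 135, 143 and 134 in THP1, 75.1, 68.9 and 66 in untreated B11, 108, 114 and 112 at 1 ug/ml and 111, 111 and 113 at 10 ug/ml. E2F1 was lower in untreated B11 at -3.14 (SE 0.08, adjusted p = 1e-12) and rose at both doses, by 2.86 (SE 0.08, adjusted p = 4.11e-12) for 1 ug/ml and 2.66 (SE 0.08, adjusted p = 3.31e-12) for 10 ug/ml. MYC was lower at -0.97 (SE 0.06, adjusted p = 3.32e-09) and rose by 0.67 (SE 0.06, adjusted p = 2.99e-07) and 0.67 (SE 0.06, adjusted p = 2.35e-07). Both remained below THP1 at 10 ug/ml at -0.43 (SE 0.08, adjusted p = 0.000614) and -0.46 (SE 0.06, adjusted p = 1.96e-05), and with 1 ug/ml at -0.37 (adjusted p = 0.00229) and -0.26 (adjusted p = 0.00266). Between the doses in B11 E2F1 gave -0.20 (adjusted p = 0.127) and MYC 0.00 (adjusted p = 0.997), and in THP1 neither passed at either dose. The response of B11 exceeded that of THP1 at 10 ug/ml by 2.71 for E2F1 and 0.50 for MYC, and at 1 ug/ml by 2.77 and 0.70, all called. Of 15 tested genes of a list of MYC and E2F regulators that holds MYC, 5 were higher and 7 lower in untreated B11, and at 10 ug/ml 6 rose and 3 fell. Over all genes 47.1% and 42.8% were called in these comparisons.

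Replication and mitotic genes, which mark cycling cells, moved with the nucleotide genes. All 24 tested replication genes were lower in untreated B11 (median -2.39) and rose at 10 ug/ml (median 1.79). This list includes E2F1, described above, and MCM2, a subunit of the replicative helicase, at -3.38 and 2.62. All 10 mitotic genes were lower (median -2.48) and rose (median 2.62), among them the cyclin CCNA2 at -3.07 and 2.94. These counts held under the 3 other scalings tried, and the part of cell cycling in the changes of the nucleotide genes was not tested. Of 14 p53 targets, the list that bears on RRM2B, 5 were higher and 5 lower in untreated B11, and 7 rose and 3 fell at 10 ug/ml, with CDKN1A, the p21 inhibitor of cyclin kinases, at -1.53 and 1.41. The shares of all genes called were 47.1% between untreated lines and 42.8% at 10 ug/ml.

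Most genes of a pair of routes that feed nucleotide synthesis were also lower in untreated B11 and rose at 10 ug/ml. Over all genes 23.6% were lower between untreated lines and 21.6% rose at 10 ug/ml. Of 15 tested genes of folate and one-carbon metabolism, which gives formyl and methyl groups to purines and thymidylate, 10 were lower and 1 higher in untreated B11, and 11 rose and 1 fell at 10 ug/ml (medians -0.89 and 1.31). GGH, which trims folate chains, read 80.5, 76.5 and 86.2 FPKM in THP1, 12.9, 10.5 and 10.2 in untreated B11 and 72.3, 59.4 and 71.3 at 10 ug/ml. MTHFD2, a mitochondrial folate enzyme, rose by 2.15. Of 11 genes that supply serine, aspartate and glutamine, 8 were lower in untreated B11 and 3 did not pass, and 8 rose and 1 fell at 10 ug/ml (medians -0.80 and 1.42). ASNS, asparagine synthetase, rose by 2.28 (SE 0.20, adjusted p = 3.54e-07), and PSPH, the last step of serine synthesis, by 1.42 (SE 0.14, adjusted p = 1.05e-06). Plate B of untreated B11 stood apart in this group: PHGDH, the first step of serine synthesis, read 11, 121 and 11.8 FPKM in plates A, B and C, and PSAT1, the second, 6.48, 43.9 and 6.9. PHGDH was singled out after its values were seen. Without that plate 7 of the 11 were lower between untreated lines and 8 rose at 10 ug/ml. THP1 at 10 ug/ml called 1 gene of this group, ASNS, at 0.91 (SE 0.20, adjusted p = 0.0487).

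The pentose phosphate pathway, which makes the ribose of PRPP, did not follow. Of 7 genes, 5 were higher and 2 lower in untreated B11, and 5 rose and 1 fell at 10 ug/ml, with medians of 0.30 and 0.43. TKT, the transketolase of the non-oxidative branch, read 235, 243 and 242 FPKM in THP1 and 458, 447 and 456 in untreated B11, higher by 0.92 (SE 0.06, adjusted p = 1.95e-08). Under TPM scaling 3 were higher and 2 lower between untreated lines. RPIA and RPE, which interconvert the pentose phosphates, rose by 0.89 and 1.02. Of 27 other salvage enzymes and kinases, 5 were higher and 10 lower in untreated B11 and 10 rose and 2 fell at 10 ug/ml, with medians of -0.05 and 0.26. PNP, which frees bases from purine nucleosides, was lower at -1.15 and rose by 1.13, and UCK2, a uridine kinase, gave -1.08 and 1.17. Of 4 tested nucleoside transporters, 1 was higher and 1 lower in untreated B11 and 2 rose and 1 fell at 10 ug/ml, with SLC29A1, the main equilibrative transporter for cytarabine uptake, rising by 0.58. Beside these lists, 47.1% of all genes were called between untreated lines, 23.5% higher and 23.6% lower. At 10 ug/ml 42.8% were called, 21.6% higher and 21.3% lower.

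Breakdown enzymes split in both directions. Of 17 tested, 6 were higher and 6 lower in untreated B11, and 5 rose and 4 fell at 10 ug/ml (medians -0.09 and 0.09). The shares of all genes called were 47.1% and 42.8%. SAMHD1, which hydrolyses deoxynucleotides and inactivates cytarabine triphosphate, read 99.5, 99.8 and 101 FPKM in plates A, B and C of untreated THP1, 175, 183 and 171 in untreated B11, 128, 125 and 123 at 1 ug/ml and 44.8, 47.6 and 44.8 at 10 ug/ml. SAMHD1 thus stood above THP1 without doxycycline and below it at 10 ug/ml, with no overlap at either. It was higher in untreated B11 by 0.81 (SE 0.05, adjusted p = 1.83e-09), fell by 1.92 (SE 0.05, adjusted p = 3.83e-13) at 10 ug/ml and was below THP1 at 10 ug/ml at -1.05 (SE 0.05, adjusted p = 4.64e-10). TYMP, which breaks down thymidine, read 32, 36.4 and 35.1 FPKM in THP1, 188, 149 and 181 in untreated B11, 67.2, 75.2 and 75.2 at 1 ug/ml and 34.1, 31.1 and 24.4 at 10 ug/ml. TYMP was higher in untreated B11 by 2.29 (SE 0.11, adjusted p = 3.48e-10) and fell by 2.50 (SE 0.11, adjusted p = 1.81e-10), and its change in THP1 at 10 ug/ml, also called, was -0.72 (SE 0.11, adjusted p = 0.00531). NUDT1 and DCTPP1, which remove damaged or unwanted nucleotides, went the other way, at -1.19 and -1.40 in untreated B11 and 0.98 and 1.13 at 10 ug/ml.

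**Figure D4:**
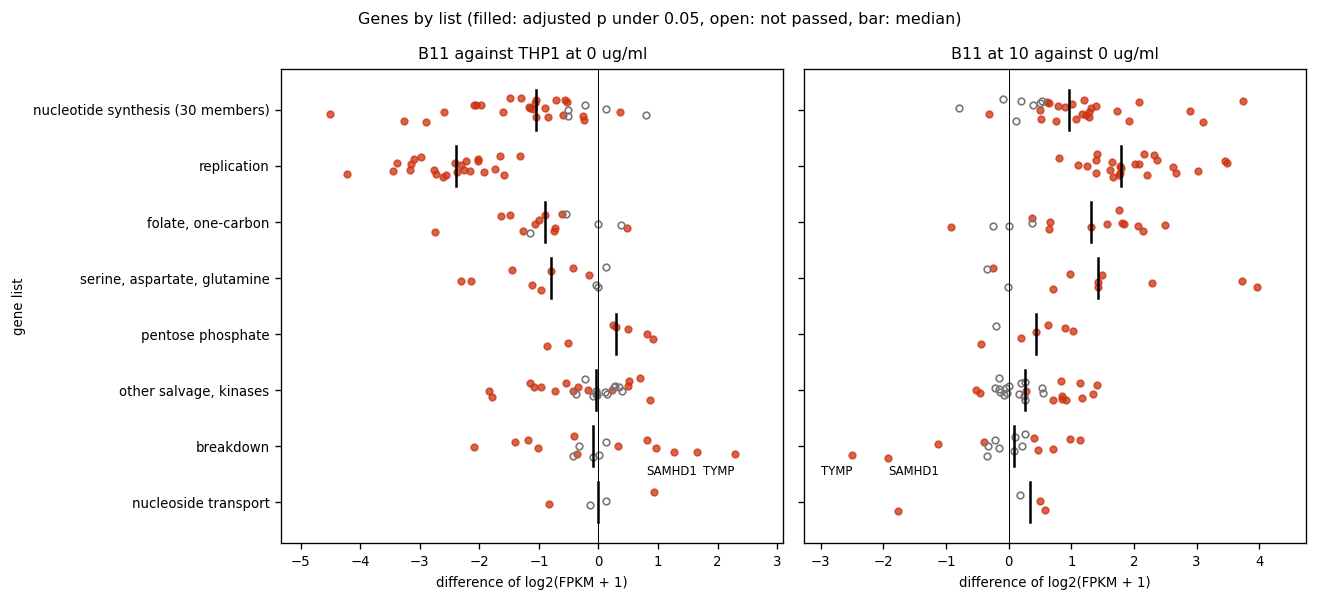
Difference of log2(FPKM + 1) for genes of the nucleotide synthesis set and 7 related lists (rows), between untreated lines (left) and in B11 at 10 against 0 ug/ml (right); filled points passed at an adjusted p under 0.05, open points did not, and bars are medians. Replication genes lie at a median of -2.39 on the left and 1.79 on the right, and SAMHD1 and TYMP move against them.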

How the data were processed

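Total RNA of 18 plates was sequenced with a standard Illumina protocol, per the labels' protocols. The deposited table holds 1 FPKM value per gene and library, made with HISAT2 on GRCh38 and Cuffnorm, per the submitters' processing notes. No unit stands in its header; FPKM was taken from the name of the tool and from sums of 1.01 to 1.20 M per library. No source used here gives versions, annotation, scaling or strandedness. GENCODE 29 named 57047 IDs and left 3611 unnamed.

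The 17555 genes that reached 1 FPKM in 3 or more libraries were taken as log2(FPKM + 1). The means of 6 groups were fitted with limma 3.58.1 in R 4.3.3, with a variance trend and 12 residual degrees of freedom. Benjamini-Hochberg adjustment ran over all genes in each of 10 comparisons, and 0.05 was the threshold. The fit was tested on simulated data. Depth was estimated from single-fragment steps and did not enter the fit. No read counts were used.

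All 30 genes were named. Of each related list, up to 4 genes that passed with the smallest p in a comparison were eligible, with NRAS, MYC and E2F1. The genes and lists were chosen with earlier results of these data known. Alternatives covered pseudocount, filter, scaling, moderation, libraries in the fit, gene type, replicate letter and each library left out. Python 3.11.15 and matplotlib 3.10.9 drew the figures. The labels give no batch. The result of 1 gene of a related list is not reported here.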

Additional observations from a re-analysis of the deposited data

Results flagged for a closer look

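For the genes below the change in B11 differed from the change in THP1 at the same dose, by the interaction term of limma at an adjusted p under 0.05. Values are the response of B11 minus that of THP1 on the log2(FPKM + 1) scale.

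At 10 ug/ml the difference was positive for 21 genes. The deoxynucleotide genes gave 3.99 for RRM2, 3.41 for TK1, 2.97 for TYMS, 2.02 for RRM1, 1.26 for DUT and 1.23 for DTYMK. The purine genes gave 2.13 for PAICS, 1.30 for PFAS, 1.27 for ATIC, 1.03 for GART, 0.77 for ADSS, 0.74 for IMPDH2, 0.50 for GMPS and 0.38 for ADSL. The remaining genes gave 1.87 for NME1, 1.40 for HPRT1, 1.30 for CTPS1, 1.14 for PRPS1, 0.85 for CAD, 0.61 for PRPS2 and 0.49 for NME2. The PRPS2 call was lost in 7 of 23 alternatives. PPAT and APRT, not called here, passed in 7 and 2 of 23.

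At 1 ug/ml it was positive for 19 genes and negative for IMPDH1 (-0.57) and CMPK1 (-0.44). The deoxynucleotide genes gave 3.97 for RRM2, 3.24 for TK1, 2.95 for TYMS, 1.72 for RRM1, 1.30 for DTYMK and 1.12 for DUT. The purine genes gave 2.03 for PAICS, 1.55 for PFAS, 1.11 for GART, 1.05 for ATIC, 0.63 for ADSL and 0.58 for IMPDH2. The others gave 1.85 for NME1, 1.32 for CTPS1, 0.93 for CAD, 0.88 for HPRT1, 0.82 for PRPS1, 0.73 for PRPS2 and 0.31 for NME2. The CMPK1 call was lost in 14 of 24 alternatives, the PRPS1 call in 13 of 24, and the PRPS2 and NME2 calls in 1 each. ADSS and UMPS, not called at this dose, passed in 5 and 1 of 24.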

How the results depend on the processing

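Over 5580 refits of 300 results for single genes, 5417 kept direction and side of the threshold, 121 lost a call, 42 gained one and none that was called reversed. A sign change where neither fit made a call, in 116 refits of 53 results, was counted as kept. TPM scaling moved the median of all genes by -0.10 between untreated lines, and with the unnamed ID left out by 0.11 for the difference of responses at 1 ug/ml. The low genes CTPS2 and DHODH had median coefficients of variation of 28.7% and 22.4% within groups, against 54.5% for DCK and 44.0% for RRM2B. The part of depth in this spread was not tested. The p-values rest on plates of 1 clone.

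Counts of the 30 genes moved as follows, and the cause was not tested. Genes lower in B11 from 1 to 10 ug/ml numbered 1 with a pseudocount of 5 or only the groups compared, and genes higher 1 without a variance trend and 0 without plates B and C at 1 ug/ml. Genes higher in B11 than in THP1 numbered 0 at 0 ug/ml and 2 at 10 ug/ml under TPM scaling with or without the unnamed ID. At 1 ug/ml they numbered 0 without a filter or without those plates, and 1 under TPM scaling, without a variance trend or with the replicate block. For the difference of responses at 1 ug/ml, genes lower numbered 1 without a filter, under both forms of TPM scaling, without a variance trend, with only the groups compared, or without those plates, and for B11 at 1 against 0 ug/ml 1 without those plates.

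Leaving out each library in turn gave 1 to 3 genes higher in B11 from 1 to 10 ug/ml, 0 to 1 higher than THP1 at 1 ug/ml, 2 to 4 higher and 5 to 8 lower than THP1 at 10 ug/ml, 0 to 1 lower in B11 at 10 against 0 ug/ml and 1 to 2 lower for the difference at 1 ug/ml. Among all genes it gave 69 to 119 called in THP1 at 10 against 0 ug/ml (179 with all libraries), 0 to 4 at 1 against 0 ug/ml and 1482 to 1730 in B11 from 1 to 10 ug/ml. With only the groups compared THP1 at 10 against 0 ug/ml called 46. THP1 at 1 against 0 ug/ml called 2 genes, and 16 with a pseudocount of 5, 23 without a filter, 1 at a mean of at least 5 FPKM or under median of ratios or TPM scaling with or without the unnamed ID, 7 without a variance trend, 10 over protein-coding genes and 0 with the replicate block. Without plates B and C at 1 ug/ml 4071 genes were called in B11 at 1 against 0, 611 at 10 against 1 and 2704 against THP1 at 1 ug/ml.

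Plate letters did not pair: deviations of same-letter plates correlated at -0.07 to 0.09 over 45 pairs, none over 0.1. With the replicate block 22 of the 30 genes rose in B11 at 10 against 0 ug/ml and 24 were lower between untreated lines, as without it, and 2 rose in B11 from 1 to 10 ug/ml, against 3.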
